A study of Homo sapiens with 18 samples.

Results

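Foregut endoderm, the embryonic tissue that lines the front of the gut tube, had been made from the wild-type human embryonic stem cell line H1, and its RNA was sequenced in bulk. The comparison set the response to all-trans retinoic acid (RA) on day 9 against the response on day 6. It used 12 of the series' 18 libraries, in 4 of 6 groups of 3. Day 9 RA cells were given 2 µM RA for 24 h between day 5 and day 6 and taken on day 9, and day 9 untreated cells were taken that day without RA. Day 6 RA cells were given the same RA and taken as the 24 h ended, and day 6 untreated cells were taken then without it. The other 6 libraries received CHIR99021 with BMP4 and entered none of the contrasts. They were used in the filter on low counts, the scaling and the estimate of the spread between replicates. They also entered the description of read kinds below. All groups came from 1 line. The labels name neither a sort nor separate cultures for the replicates, so a p-value here speaks of library-to-library spread alone. No gene was chosen as a member: the contrast was taken for all 15531 genes that passed a filter on low counts, of 35025 in the table.

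RA is a small diffusible signal made from vitamin A. It binds RA receptors (RARA, RARB, RARG) in the nucleus, which pair with retinoid X receptors on DNA and switch on nearby genes. Among the best known of these are genes that remove or limit RA, the CYP26 hydroxylases and the reductase DHRS3, and the HOX genes at the 3′ end of their clusters. In the embryo RA divides the foregut along its length. The front part, which forms the pharynx, has little of it, while the back part, near the future lung, stomach, liver and pancreas, and the adjoining heart-forming mesoderm receive more.

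FOXA2, an endoderm regulator, was read in all groups. It averaged 104 ± 12.8 CPM in day 9 RA, 34.1 ± 2.96 CPM in day 9 untreated, 234 ± 7.76 CPM in day 6 RA and 92.03 ± 2.87 CPM in day 6 untreated cells. CPM are read counts scaled to a common library total, given as mean ± SD with n = 3 here and below. Means of the epithelial genes EPCAM and CDH1 were between 232.5 and 602 CPM in the 4 groups. SOX17, an early endoderm regulator, averaged 2.61 CPM in day 9 RA, 3.50 CPM in day 9 untreated, 21.5 CPM in day 6 RA and 22.7 CPM in day 6 untreated cells. In bulk RNA, fewer cells of a type and less RNA per cell cannot be told apart.

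A gene was called at an adjusted p below 0.05, from edgeR's quasi-likelihood test with Benjamini-Hochberg adjustment over all tested genes. RA and untreated libraries differed for 10105 genes on day 9 (65.1%) and 7571 on day 6 (48.7%). These calls do not separate RA from the kind of reads in the libraries, described below. At least 2-fold changes were called for 3791 genes on day 9 (24.4%) and 2509 on day 6 (16.2%). On day 9, 5054 genes were higher (32.5%) and 5051 lower (32.5%), and on day 6, 3929 were higher (25.3%) and 3642 lower (23.4%). The difference between the responses, day 9 minus day 6 on the log2 scale, was itself called for 7906 genes (50.9%). It was higher on day 9 for 3862 (24.9%) and lower for 4044 (26.0%). On the authors' TPM scale, tested with limma, 7653 genes were higher and 2802 lower on day 9, and 6225 higher and 2099 lower on day 6. The difference there was higher for 4718 and lower for 3290. This is the interaction test, and its value is given below as the difference between days, ± its standard error.

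Genes were then sorted by the 3 tests, where a response passed 2-fold if it was called and at least 2-fold in size. A response was transient if it passed 2-fold on day 6 but not on day 9, delayed if it passed 2-fold on day 9 but not on day 6, and reversed if it passed 2-fold in opposite directions, each with the difference between days called. It was sustained if it passed 2-fold in 1 direction on both days. There were 973 delayed rises (6.26% of tested genes), 936 delayed falls (6.03%), 477 transient rises (3.07%), 324 transient falls (2.09%), 558 sustained rises (3.59%) and 548 sustained falls (3.53%). Reversed genes numbered 203 that were higher on day 9 and lower on day 6 (1.31%) and 107 that were lower on day 9 and higher on day 6 (0.689%). The other 11405 genes fell in no class. These shares count a rule and have no test of their own.

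**Figure D1:**
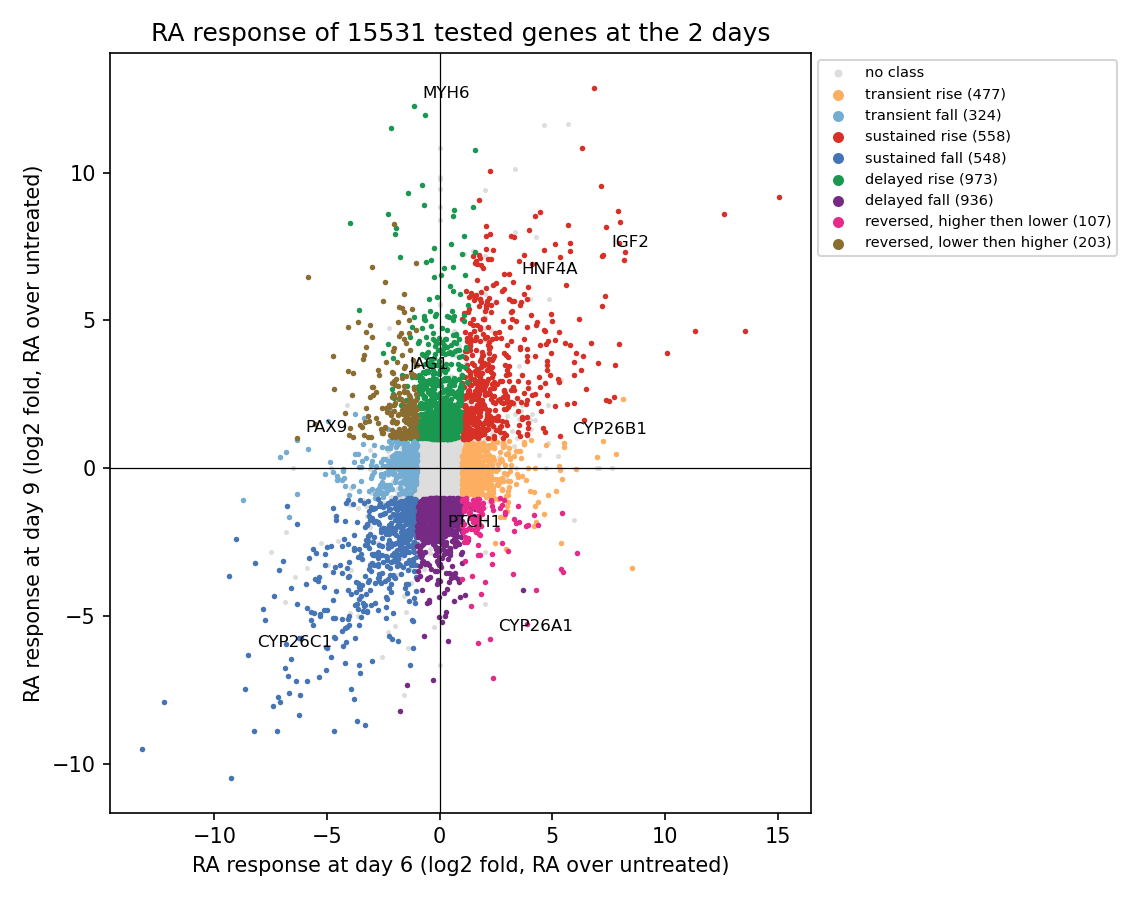
Each point is a tested gene, with its log2 fold change for RA over untreated on day 6 on the horizontal axis and on day 9 on the vertical axis, coloured by class. Transient genes (477 rises, 324 falls) lie along the horizontal axis, delayed genes (973 rises, 936 falls) along the vertical axis, and reversed genes at the upper left (203) and lower right (107).

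On day 9, 1939 genes were at least 2-fold higher (12.5%) and 1852 lower (11.9%). Delayed rises were 54.2% of the 1716 protein-coding genes that were higher, and sustained rises 24.7%. Delayed falls were 55.2% of the 1356 protein-coding genes that were lower, and sustained falls 25.1%. On day 6, 1296 genes had risen at least 2-fold (8.34%) and 1213 had fallen (7.81%). Of the 1095 protein-coding genes among those that rose, 40.5% were transient, 38.7% sustained and 8.77% reversed by day 9. Of the 952 protein-coding genes that fell, 31.3% were transient, 35.7% sustained and 20.9% reversed. Across 14021 protein-coding genes, the log2 fold changes of the 2 days had a Pearson correlation of 0.32, a description over genes that share libraries.

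The RA cells, the untreated cells or both could move between the days. Among genes higher on day 9 and lower on day 6, the RA arm moved by a median of 2.37 on the log2 scale and the untreated arm by -1.03. The RA arm moved further for 81.3% of them, for 75.3% of transient rises, 74.3% of delayed rises, 57.7% of transient falls and 61.8% of delayed falls, against 57.5% of the genes in no class. LFNG, a glycosyltransferase that modifies Notch, was a transient fall in which the RA level hardly moved. LFNG averaged 8.73 ± 1.33 CPM with RA against 7.04 ± 0.735 CPM without on day 9, and 9.53 ± 2.51 CPM with RA against 90.8 ± 13.8 CPM without on day 6. The day 6 untreated group alone was high. ADORA2B, an adenosine receptor, was a delayed fall of the same kind. ADORA2B averaged 1.08 ± 0.468 CPM with RA against 34.9 ± 3.07 CPM without on day 9, and 1.603 ± 0.543 CPM with RA against 1.57 ± 0.208 CPM without on day 6, so that the day 9 untreated group alone was high.

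**Figure D2:**
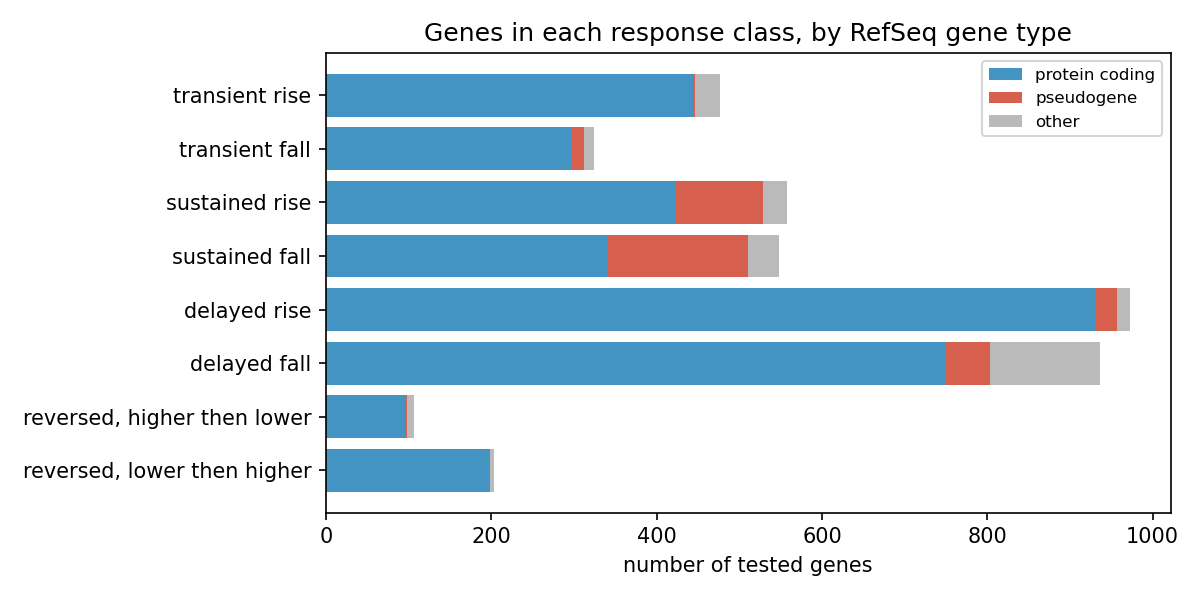
Number of genes in each class, divided by RefSeq gene type. Protein-coding genes made up most of every class, while pseudogenes were 31% of sustained falls and 18.8% of sustained rises, against 0.419% of transient rises.

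The libraries also differed in the kind of reads they held. Of 62 genes at least 10-fold apart between treated and untreated libraries, leaving out replicates 1 and 3 of day 6 untreated, 59 were pseudogenes. The share of their counts in the 30 that were high in treated libraries was 94.49% to 95.45% in day 9 RA and day 6 RA libraries, and 0.3125% to 0.5585% in day 9 untreated libraries. It was 94.06% to 94.76% in the day 9 libraries of the series given CHIR99021 and BMP4 without RA, so the treated read kind was also found where there was no RA. In day 6 untreated cells it was 0.367% in replicate 2, but 9.04% in replicate 1 and 17.7% in replicate 3, called the mixed libraries below. On day 9, RA and read kind cannot be told apart. On day 6 the RA and untreated libraries did not overlap in this share either, so the day 6 responses are not cleanly apart from read kind. Leaving out the mixed libraries leaves day 6 untreated cells with replicate 2 alone (n = 1), which the fit assumes to vary like the other groups. Without them, the difference between days was called for 6352 genes. The classes then held 428 transient rises, 299 transient falls, 504 sustained rises, 531 sustained falls, 868 delayed rises, 788 delayed falls and, of reversed genes, 177 higher on day 9 and 84 lower on day 9. Of the genes first placed in these classes, 359 transient rises, 262 transient falls, 450 sustained rises, 473 sustained falls, 774 delayed rises, 732 delayed falls and 154 and 72 reversed genes were among them. With the read kind as a covariate, 6502 differences were called, but RA responses only for 1871 genes on day 9 and 1942 on day 6. Of the genes first placed in each class, 193 transient rises, 152 transient falls, 117 sustained rises, 168 sustained falls, 366 delayed rises, 269 delayed falls and, of reversed genes, 32 higher and 5 lower on day 9 were then still in it. Within groups, the covariate varied most among day 6 untreated libraries and little among the others. Among named genes, 40 of 92 responses on day 9 and 41 of 85 on day 6 kept their call with it. The losses are given below for some of these genes only. Mitochondrial genes held 4.49% to 5.01% of counts in day 9 RA, 6.95% to 8.44% in day 9 untreated, 5.52% to 5.99% in day 6 RA and 6.23% to 6.66% in day 6 untreated libraries. The part of the mitochondrial share in the results was not tested.

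Genes of the RA pathway itself took different time courses. Of 20 tested, 8 rose and 8 fell on day 9, and 9 rose and 4 fell on day 6. Between days, the difference was higher for 2 and lower for 12. The median log2 fold change was 0.06 on day 9 and 0.39 on day 6, against -0.02 and 0.00 over all tested genes. Of all tested genes, 32.5% rose and 32.5% fell on day 9, and 25.3% rose and 23.4% fell on day 6. Between days, the difference was higher for 24.9% and lower for 26.0% of them. The list counts here and below are to be read against these shares. CYP26A1 was the 1 reversed gene of the list, and CYP26B1, RARB, RARA and NRIP1 were the 4 transient rises. Of these, RARA, RARB and NRIP1 were still called higher on day 9, under 2-fold (edgeR, adjusted p = 6.0e-09, 0.0018 and 0.034).

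CYP26A1 encodes the hydroxylase that clears RA in the early embryo. On day 9, CYP26A1 had 3.37, 1.36 and 2.56 CPM with RA against 149.9, 130.2 and 94.2 CPM without. On day 6, CYP26A1 had 278, 338 and 347 CPM with RA against 61.4, 58.2 and 84.9 CPM without. Day 6 RA libraries were the highest and day 9 RA libraries the lowest of the 12, with no overlap. It was 54.4-fold lower with RA on day 9 and 4.68-fold higher on day 6. The difference between days was -7.99 ± 0.34 (adjusted p = 6.9e-11). It was -8.21 without the mixed libraries and -8.32 with the read kind as a covariate.

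The promoters of CYP26A1 and RARB, a receptor gene described next, are shown because both carry the direct repeat that RA receptors are known to bind, while their late responses differed. The 250 bases before each start are given from RefSeq (GRCh38.p14), CYP26A1 at chr10:93073643-93073892 and RARB at chr3:25428013-25428262, both on the plus strand and 5′ to 3′, with the repeat in capitals.
CYP26A1: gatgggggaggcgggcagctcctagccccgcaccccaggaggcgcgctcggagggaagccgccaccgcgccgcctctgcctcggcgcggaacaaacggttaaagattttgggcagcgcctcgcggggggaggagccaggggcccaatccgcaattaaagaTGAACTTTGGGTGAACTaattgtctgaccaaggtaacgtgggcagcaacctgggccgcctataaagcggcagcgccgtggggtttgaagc
RARB: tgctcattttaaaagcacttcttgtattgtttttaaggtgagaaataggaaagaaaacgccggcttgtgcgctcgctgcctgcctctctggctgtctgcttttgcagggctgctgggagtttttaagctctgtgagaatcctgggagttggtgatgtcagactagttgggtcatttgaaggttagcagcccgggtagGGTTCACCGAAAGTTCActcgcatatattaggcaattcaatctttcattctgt
The repeat lies 90 to 74 bases before the CYP26A1 start, where it reads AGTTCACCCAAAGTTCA on the opposite strand, and 53 to 37 bases before the RARB start. The search took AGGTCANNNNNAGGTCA, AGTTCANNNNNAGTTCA, GGGTCANNNNNGGGTCA and GGTTCANNNNNGGTTCA, with the half-sites also in any mixed pairing, 16 forms in all, on both strands. No other motif was searched. The window covered 250 bases before to 50 after each start. The repeat matched 31 of 35116 windows (0.0883%) and 11 of 12039 tested genes with a window (0.0914%). Of 953 genes with a window that rose at least 2-fold by day 6, CYP26A1 and RARB were the 2 that matched (0.21%). The delayed and sustained classes held 0 matches. A match describes letters in this window only.

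RARB, the RA receptor that is itself a direct target, kept little of its rise. On day 9, RARB had 56.95, 42.6 and 36.5 CPM with RA against 28.1, 37.3 and 34.6 CPM without. On day 6, RARB had 176, 171 and 166 CPM with RA against 70.1, 75.9 and 71.3 CPM without. The groups overlapped on day 9 and not on day 6, and the difference between days was -0.77 ± 0.16 (adjusted p = 3.8e-04). RARA had a log2 fold change of 0.84 on day 9 and 1.42 on day 6, and the co-repressor NRIP1 one of 0.22 on day 9 and 1.01 on day 6. RXRG, a retinoid X receptor, was a transient fall. It averaged 8.64 ± 4.55 CPM with RA against 5.97 ± 1.73 CPM without on day 9. On day 6 it had no reads with RA against 1.300 ± 0.198 CPM without, and fell by at least 12.3-fold. Bounds of this kind set an empty group to 3 counts in all and cover counting error only.

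CYP26B1, a second RA hydroxylase, had lost most of its rise by day 9. On day 9, CYP26B1 had 1.604, 2.82 and 1.89 CPM with RA against 1.69, 0.511 and 0.346 CPM without. On day 6, CYP26B1 had 11.3, 10.5 and 15.6 CPM with RA against 0.134, 0.318 and 0.322 CPM without. The groups overlapped on day 9 and lay far apart on day 6. The day 9 value of log2 0.87 ± 0.40 was not called (adjusted p = 0.06), while the day 6 rise was 45.4-fold. The responses of the 2 days differed by -4.63 ± 0.68 (adjusted p = 5.3e-06). With the read kind as a covariate, the day 6 rise was not called (log2 3.85, adjusted p = 0.42), and the difference was -5.46.

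DHRS3, which reduces the RA precursor retinaldehyde back to retinol, was a sustained rise, smaller on day 9. On day 9, DHRS3 had 47.2, 42.2 and 49.00 CPM with RA against 21.2, 18.9 and 20.04 CPM without. On day 6, DHRS3 had 209, 203 and 204 CPM with RA against 15.9, 13.2 and 13.3 CPM without. RA libraries were above untreated ones on both days, 2.27-fold on day 9 and 14.5-fold on day 6, a difference of -2.68 ± 0.15 (adjusted p = 2.7e-12). The day 9 rise was not called with the read kind as a covariate (log2 0.90, adjusted p = 0.24), and the difference was -2.76. CYP26C1, the hydroxylase of the anterior embryo, was a sustained fall. CYP26C1 averaged 1.67 ± 1.09 CPM with RA against 122 ± 22.7 CPM without on day 9, and 0.509 ± 0.0871 CPM with RA against 181 ± 102 CPM without on day 6, and the difference of 2.18 ± 1.37 was not called (adjusted p = 0.21).

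**Figure D3:**
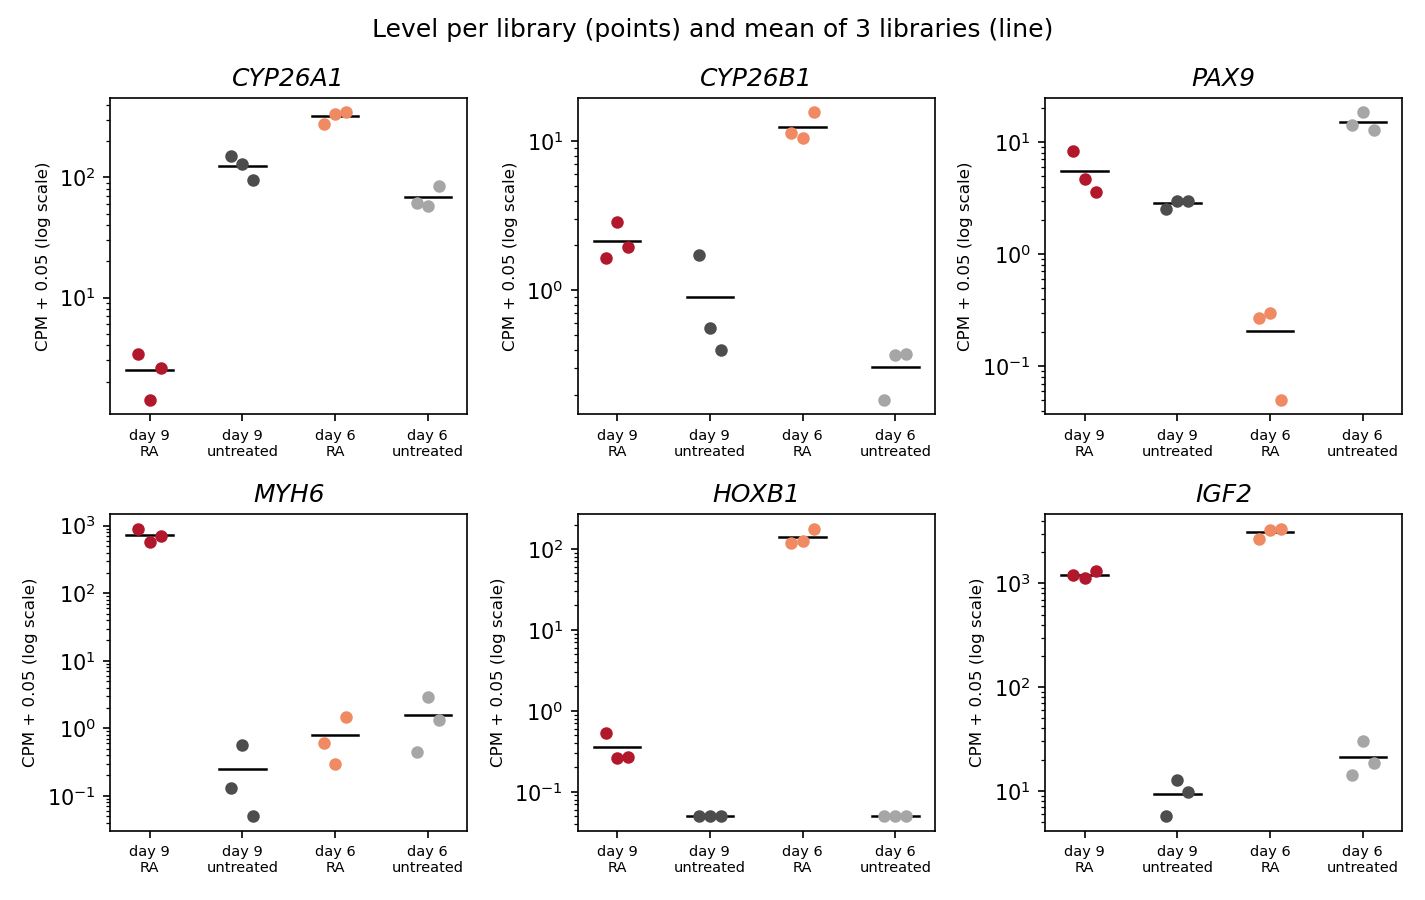
CPM of CYP26A1, CYP26B1, PAX9, MYH6, HOXB1 and IGF2 in each of the 12 libraries, on a log axis after adding 0.05, with a bar at each group mean. CYP26A1 is below untreated on day 9 and above it on day 6, CYP26B1 and PAX9 are far apart on day 6 and close on day 9, MYH6 is high in day 9 RA libraries alone, HOXB1 is high in day 6 RA libraries and low in day 9 RA libraries, and IGF2 is high with RA on both days.

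HOX genes, which give cells their position along the body axis, were higher with RA on both days, but not all to the same degree. HOXB1 had 0.481, 0.209 and 0.222 CPM in day 9 RA and 118, 125 and 178 CPM in day 6 RA libraries, and no reads in the 6 untreated ones. It was at least 3.71-fold higher with RA on day 9 and at least 1078-fold on day 6. The day 9 rise of HOXB1 was not called by edgeR without replicate 1 of day 9 RA (adjusted p = 0.0508) or of day 9 untreated (adjusted p = 0.123). Within RA cells, the log2 change of HOXB1 on day 9 over day 6 was -8.89 ± 0.29 (adjusted p = 7.4e-14). HOTAIRM1, a long noncoding transcript of the HOXA cluster, averaged 4.77 ± 2.12 CPM in day 9 RA and 347 ± 12.9 CPM in day 6 RA cells, a change of -6.26 ± 0.19 (adjusted p = 5.4e-14). HOXA3 averaged 2.31 ± 0.379 CPM in day 9 RA and 2.86 ± 1.07 CPM in day 6 RA cells, a change of -0.33 ± 0.32 that was not called (adjusted p = 0.4).

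For HOXB1 and HOXA3 the difference between days was not called (adjusted p = 1 for each). Both untreated groups were empty, and the fitted folds then depend on the value given to an empty group. In all, 31 tested genes had no untreated reads on either day. In RA cells, 17 of these were higher and 10 lower on day 9 than on day 6, and 4 did not pass the test. CDX2, a regulator of intestinal identity, averaged 36.5 ± 20.4 CPM in day 9 RA and 0.601 ± 0.141 CPM in day 6 RA cells. PDX1, a regulator of pancreas and duodenum, averaged 36.2 ± 19.96 CPM in day 9 RA and 0.247 ± 0.217 CPM in day 6 RA cells. Of 16 listed 3′ HOX genes 8 were tested, all sustained rises. Their median log2 fold change was 4.69 on day 9 and 6.33 on day 6 with empty groups at the bound. Genes silent in untreated cells could pass the low-count filter only through other groups, so this share is no support. None of 20 listed 5′ HOX genes passed it.

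Most liver and pancreas genes were higher with RA on both days. Of 20 tested (24 listed), 19 rose on day 9 and 13 on day 6, with 0 called lower. There were 12 sustained rises, 5 delayed rises and 1 transient rise. The median log2 fold change, with empty groups at the bound, was 5.17 on day 9 and 3.20 on day 6. The difference between days was higher for 7 and lower for 2, against 24.9% and 26.0% of all tested genes. Members nearly silent in untreated cells, such as PDX1 and RFX6, could pass the low-count filter only through other groups. The counts of rises are thus no support.

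HNF4A, a nuclear receptor of liver and gut, had a larger rise on day 9 than on day 6. On day 9, HNF4A had 61.6, 80.6 and 103 CPM with RA against 1.04, 0.681 and 1.38 CPM without. On day 6, HNF4A had 27.6, 29.1 and 17.3 CPM with RA against 3.62, 2.39 and 1.82 CPM without. RA libraries were above untreated ones on both days, 78.3-fold on day 9 and 9.703-fold on day 6, a difference of 3.01 ± 0.56 (adjusted p = 3.1e-04). With the read kind as a covariate, the day 6 rise of HNF4A was not called (adjusted p = 0.08). For TTR, a plasma carrier of thyroid hormone made in liver, the difference of 0.28 ± 0.69 was not called (adjusted p = 0.76). TTR averaged 146 ± 38.99 CPM with RA against 5.06 ± 4.602 CPM without on day 9, and 146 ± 23.2 CPM with RA against 4.63 ± 1.12 CPM without on day 6. ONECUT2, a hepatic and pancreatic regulator, was 286-fold higher on day 9 and 168-fold on day 6. With the read kind as a covariate, its rises were not called (adjusted p = 0.52 on day 9 and 0.38 on day 6). Nor were those of TTR (adjusted p = 0.31 on day 9 and 0.14 on day 6). RFX6, a regulator of pancreatic islets, averaged 32.1 ± 16.8 CPM in day 9 RA and 43.00 ± 2.62 CPM in day 6 RA cells, against 0.226 ± 0.104 CPM in day 9 untreated and 0.151 ± 0.1598 CPM in day 6 untreated cells.

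MNX1, a regulator of early pancreas, was the transient rise of the list. On day 9, MNX1 had 0, 0.209 and 0.667 CPM with RA against 0.0804, 0 and 0 CPM without. On day 6, MNX1 had 46.9, 41.9 and 29.3 CPM with RA against 0.268, 0.159 and 0 CPM without. Day 6 RA libraries alone were high. Over day 6 untreated cells, with 3 counts, this was a ratio of 277 with a 95% counting interval of 94.6 to 1340.0. The difference between days of -5.79 ± 2.24 (adjusted p = 0.036) was not called without the mixed libraries (adjusted p = 0.073) or without replicate 1 of day 9 untreated (adjusted p = 0.938). The delayed rises ONECUT3 and NKX6-2, regulators of endocrine and neural cells, had no reads in day 9 untreated cells. ONECUT3 averaged 4.34 ± 3.33 CPM in day 9 RA cells, at least 52.9-fold higher, and NKX6-2 2.74 ± 1.34 CPM, at least 33.4-fold higher. Their differences between days were not called without the mixed libraries (adjusted p = 0.1 and 1).

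Among 15 pan-endoderm genes, 10 rose and 2 fell on day 9, and 10 rose and 3 fell on day 6, with 7 sustained rises. For GATA6, a zinc-finger regulator of endoderm and heart, the RA level was close on both days and the untreated level lower on day 9. GATA6 averaged 205 ± 9.73 CPM with RA against 9.81 ± 1.64 CPM without on day 9, and 198 ± 20.4 CPM with RA against 22.4 ± 2.16 CPM without on day 6, a difference of 1.15 ± 0.17 (adjusted p = 5.0e-06). For its relative GATA4 the difference of 0.20 ± 0.47 (adjusted p = 0.75) was not called.

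IHH, a Hedgehog ligand of gut epithelium, was a sustained rise, smaller on day 9. On day 9, IHH had 24.4, 17.6 and 8.44 CPM with RA against 2.29, 0.681 and 1.21 CPM without. On day 6, IHH had 221, 252 and 252 CPM with RA against 2.15, 5.41 and 4.29 CPM without. RA libraries were above untreated ones on both days, but with the read kind as a covariate the day 9 rise was not called (adjusted p = 0.41). The difference of -2.78 ± 0.87 (adjusted p = 0.017) was not called without the mixed libraries (adjusted p = 0.12) or without replicate 1 of day 9 untreated (adjusted p = 0.4).

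IGF2, an imprinted growth factor gene abundant in the fetus, was a sustained rise at high levels. On day 9, IGF2 had 1201, 1125 and 1322 CPM with RA against 5.67, 12.8 and 9.68 CPM without. On day 6, IGF2 had 2703, 3277 and 3375 CPM with RA against 14.3, 30.2 and 18.5 CPM without. RA libraries were far above untreated ones on both days. The rise was 149-fold on day 9 and 151-fold on day 6, and the difference of -0.02 ± 0.41 was not called (adjusted p = 0.98). The level itself changed in RA cells, by -1.36 ± 0.21 on the log2 scale on day 9 over day 6 (adjusted p = 5.2e-05).

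Of 5 tested mid and hindgut genes (10 listed), all 5 rose on day 9 and 2 on day 6. CDX2, with no untreated reads, could pass the low-count filter only through other groups, so this count is no support. VIL1, a microvillus protein, was a delayed rise. VIL1 averaged 121 ± 39.9 CPM with RA against 5.09 ± 2.35 CPM without on day 9, and 24.5 ± 3.98 CPM with RA against 30.7 ± 4.76 CPM without on day 6, a difference of 4.87 ± 0.37 (adjusted p = 5.3e-08). ISX, an intestinal regulator, was a sustained rise. ISX averaged 12.8 ± 4.51 CPM with RA against 0.494 ± 0.205 CPM without on day 9, and 57.5 ± 8.16 CPM with RA against 6.33 ± 0.717 CPM without on day 6. Its difference of 1.85 ± 0.53 (adjusted p = 0.0065) was not called without replicate 1 of day 9 untreated (adjusted p = 0.159).

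Regulators of the anterior and pharyngeal foregut were mostly lower with RA on both days. Of 24 tested, 17 fell and 3 rose on day 9, 18 fell and 2 rose on day 6, and 13 were sustained falls. The median log2 fold change was -1.68 on day 9 and -2.35 on day 6. Between days, the difference was higher for 9 and lower for 4. PAX9 and SIX2 were the 2 transient falls.

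PAX9, a regulator of the pharyngeal pouches, had the largest difference between days in the list. On day 9, PAX9 had 8.18, 4.59 and 3.56 CPM with RA against 2.49, 2.89 and 2.94 CPM without. On day 6, PAX9 had 0.221, 0.245 and 0 CPM with RA against 14.1, 18.3 and 12.8 CPM without. RA libraries were above untreated ones on day 9 and below them on day 6, with no overlap on either day. The change was 1.95-fold higher on day 9 and 79.9-fold lower on day 6, a difference of 7.29 ± 0.59 (adjusted p = 8.8e-10). The day 9 rise was not called without replicate 1 of day 9 RA (adjusted p = 0.1) or of day 9 untreated (adjusted p = 0.0691).

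PAX1, its relative in the same pouches, partly returned. On day 9, PAX1 had 5.62, 2.297 and 1.56 CPM with RA against 15.6, 18.04 and 11.9 CPM without. On day 6, PAX1 had 0, 0.245 and 0.425 CPM with RA against 104, 150.4 and 98.7 CPM without. RA libraries were below untreated ones on both days, with a difference of 6.64 ± 0.78 (adjusted p = 5.1e-06). The untreated level itself was lower on day 9. OTX2, a regulator of head and anterior endoderm, showed a like course. On day 9, OTX2 had 97.2, 102 and 53.1 CPM with RA against 223, 185 and 157 CPM without. On day 6, OTX2 had 46.4, 46.8 and 45.7 CPM with RA against 478, 505 and 462 CPM without. It was 2.27-fold lower on day 9 and 10.4-fold lower on day 6, a difference of 2.20 ± 0.28 (adjusted p = 1.3e-05). With the read kind as a covariate the day 9 falls were not called (adjusted p = 0.21 for PAX1 and 0.34 for OTX2). The differences then were 6.97 for PAX1 and 2.22 for OTX2.

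TBX1, a regulator of the pharyngeal arches, was a sustained fall. TBX1 averaged 2.01 ± 1.51 CPM with RA against 19.2 ± 5.89 CPM without on day 9, and 3.64 ± 1.85 CPM with RA against 15.5 ± 4.53 CPM without on day 6. Its difference of -1.15 ± 0.62 was not called (adjusted p = 0.14). VGLL2 and NKX2-3, regulators of pharyngeal tissue, were near 0 with RA on both days. VGLL2 averaged 0.429 ± 0.184 CPM with RA against 82.8 ± 23.5 CPM without on day 9, and 0.7704 ± 0.384 CPM with RA against 53.9 ± 21.1 CPM without on day 6. NKX2-3 averaged 0.676 ± 0.8100 CPM with RA against 35.5 ± 1.43 CPM without on day 9, and 0.08398 ± 0.0744 CPM with RA against 9.09 ± 2.63 CPM without on day 6. GBX2, a homeobox regulator of the hindbrain border, was a transient rise at low levels. GBX2 averaged 0.0883 ± 0.0814 CPM with RA against 0.287 ± 0.3601 CPM without on day 9, and 1.92 ± 0.6199 CPM with RA against 0.0358 ± 0.06196 CPM without on day 6. Its difference was not called without replicate 3 of day 9 untreated (adjusted p = 0.212).

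Of 13 respiratory and dorsal foregut genes, 7 fell and 2 rose on day 9, and 8 fell and 2 rose on day 6. SOX2, a regulator of dorsal foregut, was a sustained fall. SOX2 averaged 14.9 ± 11.1 CPM with RA against 74.7 ± 0.752 CPM without on day 9, and 33.8 ± 6.86 CPM with RA against 93.6 ± 26.2 CPM without on day 6. With the read kind as a covariate, neither fall of SOX2 was called (adjusted p = 0.59 on day 9 and 0.76 on day 6). TP63, a regulator of stratified epithelium, was lower on both days. TP63 averaged 1.74 ± 1.57 CPM with RA against 60.2 ± 4.703 CPM without on day 9, and 0.857 ± 0.138 CPM with RA against 10.8 ± 2.78 CPM without on day 6. Its difference of -1.71 ± 0.58 (adjusted p = 0.02) was not called without the mixed libraries (adjusted p = 0.056). ETV5, a target of FGF signalling, was a transient fall. ETV5 averaged 34.5 ± 5.42 CPM with RA against 32.7 ± 4.03 CPM without on day 9, and 8.95 ± 0.999 CPM with RA against 51.2 ± 4.95 CPM without on day 6.

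Heart muscle genes were mostly delayed rises. Of 18 sarcomere and contraction genes tested (20 listed), 16 rose and 1 fell on day 9, and 1 rose and 3 fell on day 6. The difference between days was higher for 16 and lower for 0. The median log2 fold change was 5.23 on day 9 and -0.38 on day 6. Delayed rises numbered 12, MYL4 and ACTC1 were reversed, and TNNT2 was a transient fall. Members nearly silent in untreated cells, such as MYBPC3 and SMYD1, could pass the low-count filter only through other groups. Their share among the rises is no support. Summed over the list, the level was 4349 to 6046 CPM in day 9 RA and 124 to 189.9 CPM in day 9 untreated libraries. It was 431 to 595 CPM in day 6 RA and 339 to 645 CPM in day 6 untreated libraries, which overlapped. TTN alone averaged 377 CPM in day 6 RA and 279 CPM in day 6 untreated cells, and ACTC1 2595 CPM in day 9 RA cells. The day 6 sums therefore mainly follow TTN and not the list as a whole.

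MYH6 encodes the atrial myosin heavy chain. On day 9, MYH6 had 905, 566 and 699 CPM with RA against 0.0804, 0.511 and 0 CPM without. On day 6, MYH6 had 0.552, 0.245 and 1.42 CPM with RA against 0.402, 2.87 and 1.29 CPM without. The 3 day 9 RA libraries stood apart, and the day 6 groups overlapped. Day 9 minus day 6 was 13.40 ± 1.53 (adjusted p = 6.7e-06). It was 14.10 with the read kind as a covariate (adjusted p = 1.3e-04).

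MYBPC3, a thick-filament protein, had no reads in day 9 untreated cells and 45.8 ± 10.7 CPM in day 9 RA cells, at least 558-fold higher. SMYD1, a muscle methyltransferase, had no reads there either and 33.8 ± 6.99 CPM in day 9 RA cells, at least 411-fold higher. MYH7, the ventricular myosin, was also a delayed rise. MYH7 averaged 42.7 ± 9.31 CPM with RA against 0.242 ± 0.175 CPM without on day 9, and 0.111 ± 0.0299 CPM with RA against 0.496 ± 0.541 CPM without on day 6. UNC45B, a myosin chaperone, was reversed. It averaged 46.5 ± 8.82 CPM with RA against 0.634 ± 0.345 CPM without on day 9. On day 6 it had no reads with RA against 0.693 ± 0.368 CPM without, and fell by at least 6.55-fold. The fitted differences between days of MYBPC3, SMYD1 and UNC45B depend on the value given to the empty group. Against replicate 2 of day 6 untreated alone (n = 1), in which SMYD1 and MYH7 were higher than in the mixed libraries, their day 6 falls were called by edgeR (adjusted p = 0.0074 and 0.026).

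Regulators of the heart took several courses. Of 12 tested, 7 rose and 3 fell on day 9, and 4 rose and 6 fell on day 6. Their median log2 fold change was 2.06 on day 9 and -0.36 on day 6. MEF2C, which activates sarcomere genes, was a delayed rise. MEF2C averaged 42.7 ± 2.81 CPM with RA against 5.57 ± 3.57 CPM without on day 9, and 5.98 ± 0.832 CPM with RA against 5.84 ± 1.89 CPM without on day 6. TBX20, a T-box factor of the heart, was reversed. TBX20 averaged 18.4 ± 6.65 CPM with RA against 1.79 ± 0.671 CPM without on day 9, and 0.3904 ± 0.206 CPM with RA against 1.86 ± 0.826 CPM without on day 6. Its day 6 fall was not called without the mixed libraries (adjusted p = 0.06). HAND1, a factor of the left ventricle, was reversed at low levels. HAND1 averaged 1.74 ± 0.534 CPM with RA against 0.409 ± 0.246 CPM without on day 9, and 0.08398 ± 0.0744 CPM with RA against 1.18 ± 0.406 CPM without on day 6.

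NKX2-5 and ISL1, early regulators of heart and pharynx, were sustained falls. NKX2-5 averaged 12.5 ± 7.38 CPM with RA against 36.4 ± 2.92 CPM without on day 9, and 0.316 ± 0.203 CPM with RA against 6.98 ± 2.87 CPM without on day 6. Its difference of 2.99 ± 0.91 (adjusted p = 0.014) was not called without the mixed libraries (adjusted p = 0.059). ISL1 averaged 63.6 ± 44.8 CPM with RA against 181 ± 27.6 CPM without on day 9, and 14.3 ± 2.16 CPM with RA against 80.03 ± 23.7 CPM without on day 6. TCF21, a regulator of epicardium and visceral mesoderm, went opposite to TBX20. On day 9, TCF21 had 0.321, 0 and 0.111 CPM with RA against 2.53, 7.32 and 7.26 CPM without. On day 6, TCF21 had 9.49, 12.2 and 6.796 CPM with RA against 0.268, 0.318 and 1.18 CPM without. It was low with RA on day 9 and high with RA on day 6, with no overlap, a difference of -9.13 ± 0.87 (adjusted p = 4.2e-08). With the read kind as a covariate, neither response of TCF21 was called (adjusted p = 0.23 on day 9 and 0.31 on day 6). The difference was then -9.26.

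Mesenchyme genes were mostly higher on day 9, while 7 were lower on day 6. Of 18 tested, 12 rose and 1 fell on day 9, and 3 rose and 7 fell on day 6. Their median log2 fold change was 2.17 on day 9 and -1.20 on day 6. Between days, the difference was higher for 12 and lower for 0. COL3A1, DCN, SNAI2, ACTA2 and TAGLN were reversed. Summed over the list, the level was 33510 to 45000 CPM in day 9 RA and 5987 to 7660 CPM in day 9 untreated libraries. It was 16470 to 17670 CPM in day 6 RA and 11310 to 14800 CPM in day 6 untreated libraries. FN1 alone averaged 31230 CPM in day 9 RA, 5464 CPM in day 9 untreated, 15400 CPM in day 6 RA and 11980 CPM in day 6 untreated cells. The sums therefore mainly follow FN1 and not the list as a whole. The part of a change in cell types in the heart and mesenchyme results was not tested.

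ACTA2 encodes smooth muscle actin. On day 9, ACTA2 had 634, 589 and 839.7 CPM with RA against 51.2, 55.5 and 55.5 CPM without. On day 6, ACTA2 had 7.61, 5.23 and 9.202 CPM with RA against 17.8, 17.8 and 13.4 CPM without. It was highest in day 9 RA and lowest in day 6 RA libraries, with no overlap on either day, and the difference between days was 4.87 ± 0.27 (adjusted p = 2.8e-10). TAGLN, which binds smooth muscle actin, followed it. TAGLN averaged 2303 ± 376 CPM with RA against 263 ± 64.6 CPM without on day 9, and 126 ± 12.8 CPM with RA against 355 ± 111 CPM without on day 6. The matrix proteoglycan DCN was reversed too. DCN averaged 0.6099 ± 0.251 CPM with RA against 0.0134 ± 0.0232 CPM without on day 9, and 0.249 ± 0.167 CPM with RA against 1.02 ± 0.318 CPM without on day 6. The matrix protein POSTN was a delayed rise. POSTN averaged 105 ± 59.9 CPM with RA against 11.6 ± 3.03 CPM without on day 9, and 6.44 ± 1.78 CPM with RA against 14.2 ± 4.17 CPM without on day 6.

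**Figure D4:**
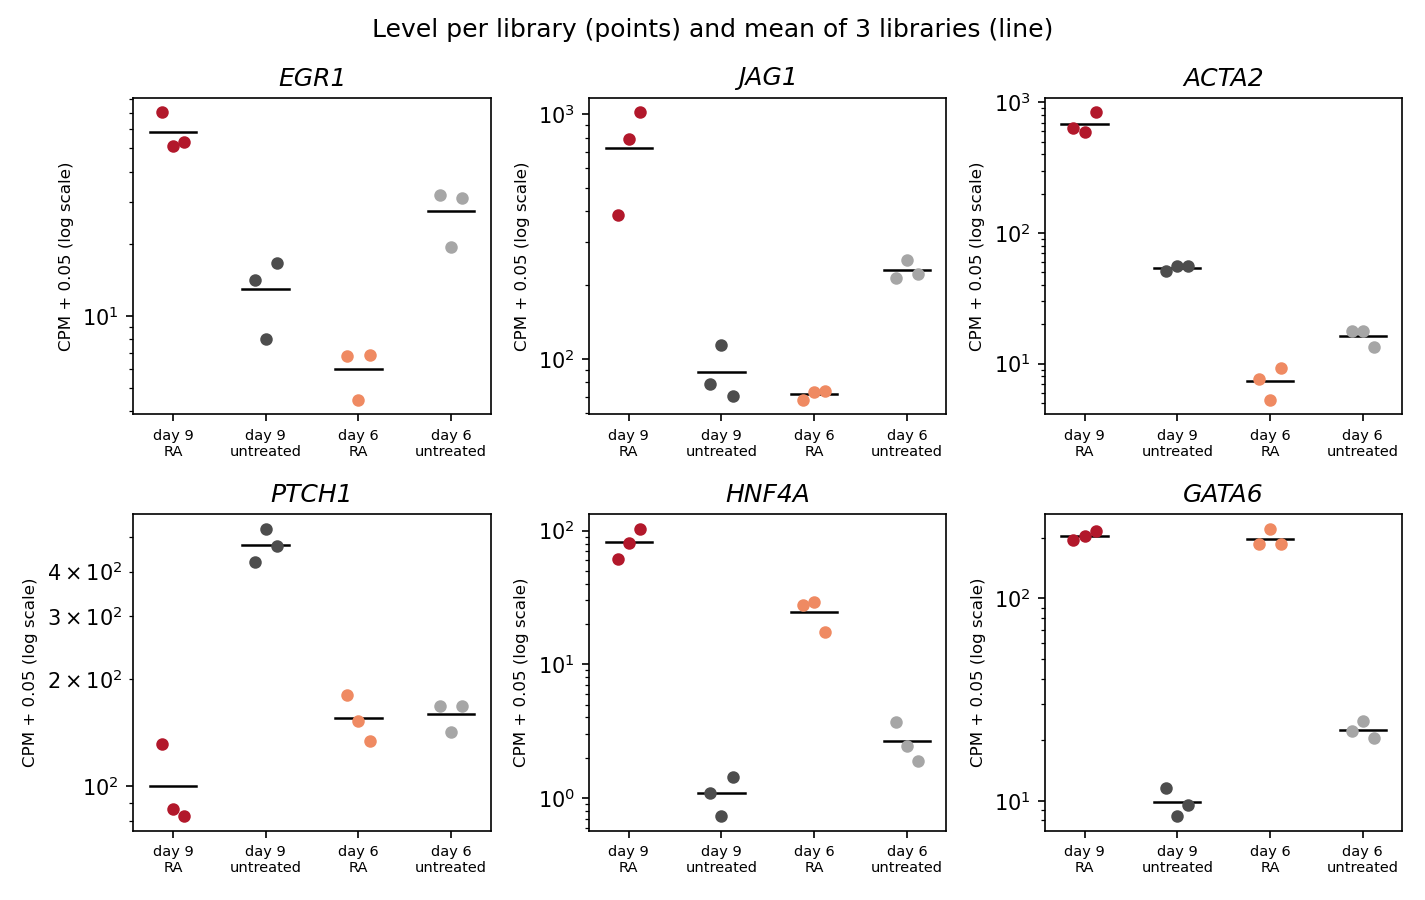
CPM of EGR1, JAG1, ACTA2, PTCH1, HNF4A and GATA6 in each of the 12 libraries, on a log axis after adding 0.05, with a bar at each group mean. EGR1, JAG1 and ACTA2 are above untreated on day 9 and below it on day 6, PTCH1 is below untreated on day 9 alone, and HNF4A and GATA6 are above untreated on both days.

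Targets of FGF signalling were mostly lower at the end of RA exposure and divided by day 9. Of 16 tested, 7 rose and 5 fell on day 9, and 2 rose and 11 fell on day 6. The difference between days was higher for 9 and lower for 4. EGR1, FOS, DUSP5 and IER3 were reversed, and SPRY4, ETV4 and ETV5 were transient falls. EGR1 encodes an immediate-early transcription factor. On day 9, EGR1 had 70.6, 51.1 and 53.2 CPM with RA against 14.1, 8.0 and 16.6 CPM without. On day 6, EGR1 had 6.73, 4.41 and 6.796 CPM with RA against 31.9, 19.3 and 31.1 CPM without. With RA the libraries were higher on day 9 and lower on day 6, with no overlap and a difference of 4.38 ± 0.33 (adjusted p = 8.3e-09).

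FOS, part of the AP-1 complex, was reversed likewise. FOS averaged 25.8 ± 2.56 CPM with RA against 8.54 ± 2.07 CPM without on day 9, and 2.33 ± 0.183 CPM with RA against 23.4 ± 2.46 CPM without on day 6, a difference of 4.87 ± 0.27 (adjusted p = 1.6e-12). With the read kind as a covariate, the day 9 rises were not called (adjusted p = 0.66 for EGR1 and 0.0501 for FOS). The differences then were 3.88 for EGR1 and 4.92 for FOS. DUSP5, a phosphatase that restrains ERK, was reversed as well. DUSP5 averaged 34.8 ± 15.1 CPM with RA against 2.94 ± 0.209 CPM without on day 9, and 7.55 ± 0.338 CPM with RA against 15.6 ± 3.96 CPM without on day 6. Its day 6 fall was under 2-fold without the mixed libraries (log2 -0.93). For SPRY4, a feedback inhibitor of FGF signalling, the day 9 change of log2 0.10 ± 0.15 was not called (adjusted p = 0.59). SPRY4 averaged 50.6 ± 1.02 CPM with RA against 46.5 ± 5.84 CPM without on day 9, and 9.28 ± 1.85 CPM with RA against 65.5 ± 4.92 CPM without on day 6.

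Most genes of a BMP list were lower with RA on day 6. Besides targets, the list held the ligands BMP2, BMP4 and BMP7 and the secreted antagonists NOG and GREM1. Of 18 tested, 8 rose and 6 fell on day 9, and 2 rose and 13 fell on day 6. Between days, the difference was higher for 12 and lower for 2. Their median log2 fold change was 0.01 on day 9 and -1.41 on day 6. The 4 ID genes, SMAD9 and BAMBI were transient falls. On day 9, SMAD9 was still called lower, under 2-fold (log2 -0.87, edgeR adjusted p = 2.3e-07). ID1, ID2 and ID3 were called higher there, also under 2-fold (log2 0.81, 0.40 and 0.91). ID1 encodes an inhibitor of basic helix-loop-helix factors. On day 9, ID1 had 398, 329 and 331 CPM with RA against 221, 186 and 194 CPM without. On day 6, ID1 had 21.4, 27.6 and 37.4 CPM with RA against 91.02, 81.2 and 142 CPM without. RA libraries were above untreated ones on day 9 and below them on day 6, a difference of 2.69 ± 0.30 (adjusted p = 3.8e-06).

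The ligands BMP4 and BMP2 took different courses. BMP4 was a sustained fall. BMP4 averaged 43.8 ± 9.48 CPM with RA against 190.4 ± 21.9 CPM without on day 9, and 119 ± 5.14 CPM with RA against 714 ± 28.9 CPM without on day 6. Its difference of 0.45 ± 0.19 was not called (adjusted p = 0.061). BMP2 was a delayed rise. BMP2 averaged 294 ± 67.1 CPM with RA against 18.96 ± 6.34 CPM without on day 9, and 123 ± 6.67 CPM with RA against 203 ± 43.2 CPM without on day 6, a difference of 4.57 ± 0.36 (adjusted p = 1.7e-07). SMAD7, which inhibits BMP and TGF-β signals, had a log2 fold change of 1.40 ± 0.10 on day 9 and -0.64 ± 0.12 on day 6. ATOH8, a helix-loop-helix factor, was a transient rise, with -0.41 ± 0.30 on day 9 and 3.01 ± 0.27 on day 6.

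Of 17 Notch pathway genes, 9 rose and 1 fell on day 9, and 3 rose and 7 fell on day 6. The difference between days was higher for 10 and lower for 1. JAG1 encodes a Notch ligand. On day 9, JAG1 had 385, 787 and 1015 CPM with RA against 79.2, 114 and 70.7 CPM without. On day 6, JAG1 had 67.9, 73.4 and 73.8 CPM with RA against 214, 254 and 222 CPM without. With RA the libraries were higher on day 9 and lower on day 6, with no overlap and a difference of 4.74 ± 0.40 (adjusted p = 4.8e-07). HEY1, a Notch and BMP target, was reversed in the same direction. HEY1 averaged 19.4 ± 2.81 CPM with RA against 6.79 ± 3.07 CPM without on day 9, and 3.79 ± 1.41 CPM with RA against 8.31 ± 1.55 CPM without on day 6. HES4, a Notch target, was a delayed rise. HES4 averaged 31.6 ± 4.32 CPM with RA against 4.41 ± 1.47 CPM without on day 9, and 10.8 ± 2.09 CPM with RA against 8.38 ± 3.88 CPM without on day 6.

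Of 15 Hedgehog pathway genes, 8 fell and 4 rose on day 9, and 7 fell and 1 rose on day 6. By the interaction test, the response was lower on day 9 for 6 and higher for 4, against 26.0% and 24.9% of all tested genes. PTCH1 encodes the Hedgehog receptor and is a target of the pathway. On day 9, PTCH1 had 131, 86.2 and 82.4 CPM with RA against 425, 528 and 473 CPM without. On day 6, PTCH1 had 179.8, 153 and 134 CPM with RA against 168, 142 and 168 CPM without. Day 9 untreated libraries were the highest, the day 6 groups overlapped, and the difference between days was -2.22 ± 0.36 (adjusted p = 1.9e-04). With the read kind as a covariate, the day 9 fall was not called (adjusted p = 0.081).

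GLI1, target and effector of the pathway, was lower on both days. GLI1 averaged 5.01 ± 1.94 CPM with RA against 46.5 ± 1.91 CPM without on day 9, and 6.97 ± 1.09 CPM with RA against 15.5 ± 4.05 CPM without on day 6. Its day 6 fall was not called without the mixed libraries (log2 -0.71, adjusted p = 0.3). GLI3, a repressor of the pathway, was a delayed fall. GLI3 averaged 24.01 ± 1.98 CPM with RA against 316 ± 31.6 CPM without on day 9, and 113 ± 2.08 CPM with RA against 224 ± 20.03 CPM without on day 6. Its day 6 fall was called too, just under 2-fold (log2 -0.98, edgeR adjusted p = 1.5e-09). Without the mixed libraries it was over 2-fold (log2 -1.08). The ligand SHH was not called on either day. SHH averaged 33.8 ± 14.5 CPM with RA against 67.2 ± 17.7 CPM without on day 9, and 19.7 ± 1.16 CPM with RA against 27.2 ± 2.83 CPM without on day 6. HHIP, which binds the ligands, was a delayed rise. HHIP averaged 18.2 ± 3.895 CPM with RA against 3.13 ± 3.24 CPM without on day 9, and 9.44 ± 1.696 CPM with RA against 8.03 ± 0.106 CPM without on day 6.

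Of 16 Wnt targets, 4 rose and 8 fell on day 9, and 6 rose and 8 fell on day 6. DKK1, a secreted Wnt inhibitor, was a transient fall. DKK1 averaged 35.99 ± 10.6 CPM with RA against 29.97 ± 4.79 CPM without on day 9, and 1.03 ± 0.341 CPM with RA against 29.4 ± 9.79 CPM without on day 6, a difference of 5.09 ± 0.50 (adjusted p = 6.9e-07). APCDD1, a Wnt inhibitor at the cell surface, was in the transient fall class, but still called lower on day 9 (log2 -0.70, edgeR adjusted p = 0.0024). APCDD1 averaged 33.7 ± 6.45 CPM with RA against 53.3 ± 12.2 CPM without on day 9, and 7.71 ± 1.196 CPM with RA against 61.2 ± 9.59 CPM without on day 6. RNF43, which removes Wnt receptors, was a transient rise. RNF43 averaged 2.58 ± 0.578 CPM with RA against 2.58 ± 0.805 CPM without on day 9, and 7.14 ± 0.713 CPM with RA against 1.92 ± 0.214 CPM without on day 6. Of 13 Nodal and TGF-β genes, 8 rose and 3 fell on day 9, and 3 rose and 4 fell on day 6. TGFBI, a matrix protein induced by TGF-β, was a delayed rise. TGFBI averaged 198 ± 54.99 CPM with RA against 11.4 ± 7.59 CPM without on day 9, and 12.9 ± 3.07 CPM with RA against 24.6 ± 4.75 CPM without on day 6.

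Genes of DNA replication and division were lower with RA on day 9. Of 22 tested, 21 fell on day 9 and 10 on day 6, with 0 called higher. By the interaction test, the day 9 response was lower for 16 and higher for 0. The changes were small, with a median log2 fold change of -0.70 on day 9 and -0.16 on day 6. MCM2 encodes a subunit of the replicative helicase. On day 9, MCM2 had 109, 93.6 and 92.5 CPM with RA against 282, 296 and 261 CPM without. On day 6, MCM2 had 214, 213 and 245 CPM with RA against 243, 224 and 248 CPM without. Day 9 RA libraries were below all others, the day 6 groups overlapped, and the difference was -1.42 ± 0.12 (adjusted p = 2.0e-09). The licensing factor CDT1 had a difference of -1.11 ± 0.17 (adjusted p = 9.6e-06) and the helicase factor GINS2 one of -1.05 ± 0.13 (adjusted p = 5.2e-07).

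Of 13 mitochondrially encoded genes, 8 fell on day 9 and 4 on day 6, and ND1, a complex I subunit, was a delayed fall. ND1 averaged 1861 ± 80.3 CPM with RA against 4246 ± 360.1 CPM without on day 9, and 2219 ± 168 CPM with RA against 3211 ± 34.7 CPM without on day 6. Of 15 integrated stress genes, 6 rose and 4 fell on day 9, and 0 rose and 9 fell on day 6. DDIT3, ATF5 and XBP1 were transient falls, and the stress factor ATF3 was a delayed rise. On day 9, ATF5 was called higher (log2 0.76) and XBP1 lower (log2 -0.26), both under 2-fold. ATF3 averaged 132 ± 13.1 CPM with RA against 31.2 ± 7.93 CPM without on day 9, and 18.98 ± 2.75 CPM with RA against 16.96 ± 4.11 CPM without on day 6.

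Of 7 pluripotency genes, 1 rose and 4 fell on day 9, and 2 rose and 2 fell on day 6. LIN28A, an RNA-binding protein of stem cells, was in the delayed fall class. Its day 6 fall was called too, under 2-fold (log2 -0.65, edgeR adjusted p = 3.2e-07). LIN28A averaged 1018 ± 42.6 CPM with RA against 2189 ± 146 CPM without on day 9, and 1847 ± 45.9 CPM with RA against 2890.0 ± 267 CPM without on day 6. Its difference of -0.46 ± 0.11 (adjusted p = 0.0013) was not called without the mixed libraries (adjusted p = 0.053). ZFP42, a marker of pluripotent cells, was in the transient fall class. ZFP42 averaged 1.89 ± 0.535 CPM with RA against 1.601 ± 0.846 CPM without on day 9, and 4.84 ± 1.56 CPM with RA against 21.4 ± 5.47 CPM without on day 6. Of 12 endothelial and blood genes, 1 rose and 3 fell on day 9, and 0 rose and 1 fell on day 6. The gene that fell on day 6 was FLI1, an endothelial factor. FLI1 averaged 4.68 ± 0.416 CPM with RA against 5.16 ± 2.95 CPM without on day 9, and 2.24 ± 0.863 CPM with RA against 8.100 ± 3.57 CPM without on day 6. Of 10 neural and sensory genes, 2 rose and 4 fell on day 9, and 1 rose and 4 fell on day 6. DCX, a microtubule protein of migrating neurons, was a transient rise that was called lower on day 9 (log2 -0.89, edgeR adjusted p = 0.013). DCX averaged 11.1 ± 6.04 CPM with RA against 21.6 ± 5.23 CPM without on day 9, and 46.9 ± 2.71 CPM with RA against 5.89 ± 2.02 CPM without on day 6. STMN2, another neuronal microtubule protein, was a delayed rise. STMN2 averaged 38.4 ± 17.6 CPM with RA against 2.72 ± 0.483 CPM without on day 9, and 4.704 ± 1.49 CPM with RA against 5.55 ± 1.84 CPM without on day 6.

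**Figure D5:**
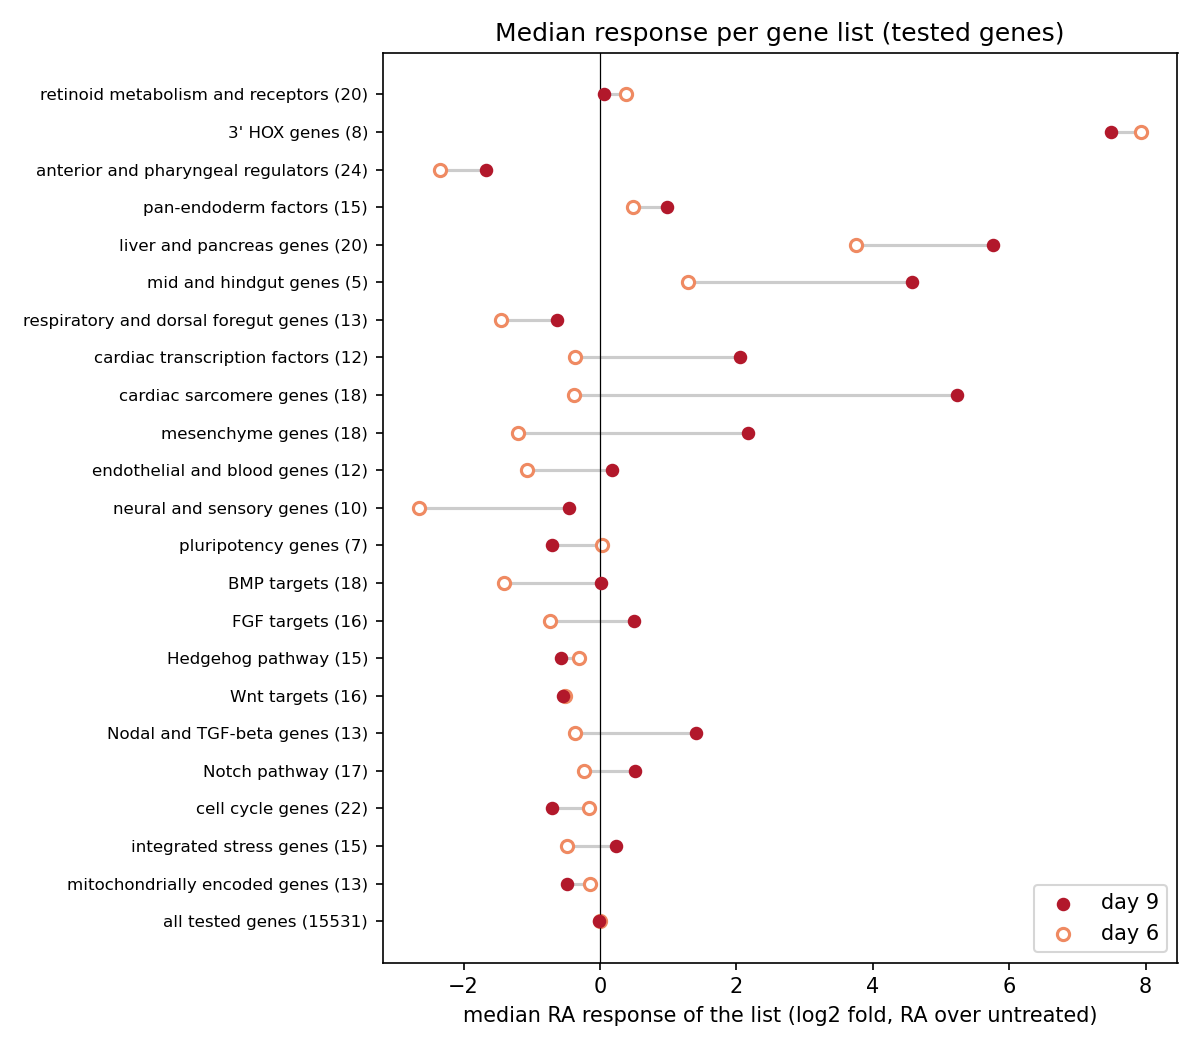
Median log2 fold change of RA over untreated for each gene list, with filled points for day 9 and open points for day 6. The cardiac sarcomere list is high on day 9 (5.23) and near 0 on day 6 (-0.38), the mesenchyme list is above 0 on day 9 (2.17) and below 0 on day 6 (-1.20), and the anterior and pharyngeal list is below 0 on both days (-1.68 and -2.35).

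Outside these lists, the largest reversals were in genes at low levels on 1 of the days. CDH26 encodes an epithelial cadherin. On day 9, CDH26 had 0.642, 0 and 0.333 CPM with RA against 2.33, 2.04 and 1.55 CPM without. On day 6, CDH26 had 34.4, 31.2 and 25.3 CPM with RA against 0.402, 0.637 and 0.322 CPM without. Day 6 RA libraries alone were high, and the difference between days was -8.93 ± 0.61 (adjusted p = 5.1e-11). VWA5B1 followed the same course. VWA5B1 averaged 0.0718 ± 0.0623 CPM with RA against 1.26 ± 0.521 CPM without on day 9, and 14.1 ± 3.92 CPM with RA against 0.303 ± 0.0301 CPM without on day 6. PI15, a protease inhibitor, was high in day 9 untreated cells. PI15 averaged 0.125 ± 0.0306 CPM with RA against 17.6 ± 5.25 CPM without on day 9, and 0.9499 ± 0.329 CPM with RA against 0.169 ± 0.0412 CPM without on day 6. Its day 6 rise was not called without the mixed libraries (adjusted p = 0.12). In the other direction, RGS4, a regulator of G protein signalling, and CALB1, a calcium-binding protein, were high in day 9 RA cells. RGS4 averaged 18.1 ± 2.32 CPM with RA against 0.237 ± 0.257 CPM without on day 9, and 0.175 ± 0.0409 CPM with RA against 1.02 ± 0.384 CPM without on day 6. CALB1 averaged 45.3 ± 16.1 CPM with RA against 0.197 ± 0.275 CPM without on day 9, and 0.461 ± 0.271 CPM with RA against 1.899 ± 0.811 CPM without on day 6. TMEM196, a membrane protein, was high there too. TMEM196 averaged 8.097 ± 4.63 CPM with RA against 0.309 ± 0.0589 CPM without on day 9, and 0.0272 ± 0.0472 CPM with RA against 0.766 ± 0.116 CPM without on day 6. The day 6 fall of CALB1 was not called without the mixed libraries (adjusted p = 0.3).

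ANO1, a calcium-activated chloride channel, was among the 4 transient rises with the largest differences. On day 9, ANO1 had 1.44, 1.77 and 3.33 CPM with RA against 1.57, 3.404 and 3.28 CPM without. On day 6, ANO1 had 47.1, 60.4 and 56.6 CPM with RA against 1.07, 0.796 and 0.644 CPM without. Day 6 RA libraries alone were high, and the difference between days was -6.06 ± 0.48 (adjusted p = 1.1e-09). LAMB3, a laminin subunit of epithelial basement membrane, was another. LAMB3 averaged 0.162 ± 0.0589 CPM with RA against 0.504 ± 0.0191 CPM without on day 9, and 7.83 ± 1.82 CPM with RA against 0.303 ± 0.0301 CPM without on day 6. For CFAP100, a cilium-associated protein, the difference of -6.13 ± 1.15 (adjusted p = 1.1e-04) was not called without replicate 1 of day 9 untreated (adjusted p = 0.0736). CFAP100 averaged 0.0348 ± 0.0603 CPM with RA against 0.137 ± 0.124 CPM without on day 9, and 13.7 ± 1.44 CPM with RA against 0.7904 ± 0.5600 CPM without on day 6.

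PCDH8, a protocadherin, was among the 4 transient falls with the largest differences. On day 9, PCDH8 had 19.1, 12.9 and 6.0 CPM with RA against 46.97, 11.4 and 8.64 CPM without. On day 6, PCDH8 had 0, 0.245 and 0.142 CPM with RA against 67.6, 50.8 and 76.8 CPM without. The groups overlapped on day 9 and not on day 6, and the difference between days was 7.68 ± 1.34 (adjusted p = 3.6e-04). The delayed falls KLK10, SPARCL1 and BHMT resembled ADORA2B. In day 9 untreated cells KLK10, a kallikrein protease, averaged 8.05 ± 2.396 CPM, SPARCL1, a matrix protein, 6.69 ± 0.482 CPM and BHMT, an enzyme of methionine metabolism, 71.01 ± 1.04 CPM. Their means in the other 3 groups were at most 1.32 CPM. Their differences were not called without replicate 2 of day 6 RA (adjusted p = 0.0963 for KLK10, 0.0566 for SPARCL1 and 0.0671 for BHMT). POTEE, a sustained fall, shares sequence with near copies, so its values are uncertain and not described.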

How the data were processed

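RNA-seq libraries of 12 samples, 3 in each of 4 groups, were compared, within a series of 18. The values analysed were gene counts as deposited by the authors, whole numbers with no normalization. TPM values deposited by the authors served only for an alternative. Reads had been aligned with STAR 2.7.9 to GRCh38, per the submitters' processing notes. Libraries were made with a stranded mRNA kit, per the labels' protocols. How reads were assigned to genes, with which annotation and strand setting, was not given in the sources used here. Overlapping, antisense and near-identical genes are therefore uncertain. Totals ran between 5792337 and 25371661 counts per library. The 36 genes without a symbol held 0.00102% of counts and were left out.

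Counts were analysed with edgeR 4.0.16 in R 4.3.3. Genes were kept by filterByExpr with a minimum count of 10, libraries were scaled by TMM, and 1 quasi-likelihood model with robust dispersion was fitted to all 18 libraries, so that the groups shared 1 estimate of spread (common dispersion 0.00724). P-values were Benjamini-Hochberg adjusted over the 15531 tested genes, and standard errors were the log2 fold change divided by the square root of F. Gene types came from RefSeq, matched by gene ID for 34984 genes, and promoter sequences from RefSeq on GRCh38.p14. In data simulated for the difference between days on 15531 genes, 1.5-, 2- and 4-fold changes were recovered for 37.3%, 64.2% and 92.4% of 67, 67 and 66 genes. False calls were 9.15%, above the 0.05 set, and 0 calls were made where nothing had been changed. Only these genes, drawn from those with more counts, were changed. In the data 7906 differences were called, so these rates need not carry over. Chi-square per gene between replicates was 2.47 to 10.6, so no library was counted as a repeat of another.

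The contrast, gene lists and fixed genes were chosen with earlier results of these data known. Named genes were the fixed genes, the 4 protein-coding genes per class with the largest difference between days (for sustained classes, the largest smaller response) among those with a mean of at least 5 CPM in a group and no overlap of libraries where the class needs a call, and up to 4 members in a class per list by the same measure. Some list members are named only by their class, and some genes the rule gave are not reported here.

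Alternatives were RLE and upper-quartile scaling, DESeq2 1.42.0, no low-count filter, limma 3.58.1 on log2(TPM + 0.5), a fit of the 12 libraries alone, a replicate block, fold thresholds of 1.5 and 4, each library left out, the mixed day 6 untreated libraries left out, and a read-kind covariate. Counts of protein-coding genes alone, and day 9 RA against day 6 RA for genes with no untreated reads, were added after seeing the data. Read-kind genes had a minimum of 2 CPM and were chosen without replicates 1 and 3 of day 6 untreated.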

Additional observations from a re-analysis of the deposited data

Results flagged for a closer look

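RA responses on day 9 and day 6 differed, by the interaction test, for 7906 genes. The genes below were picked out because RA and untreated libraries differed in opposite directions on the 2 days. Each value is the log2 response on day 9 minus that on day 6. Lower on day 9 and higher on day 6 were PI15 (-9.45), TCF21 (-9.13), VWA5B1 (-8.99), CDH26 (-8.93) and CYP26A1 (-7.99). Higher on day 9 and lower on day 6 were UNC45B (12.32), CALB1 (10.28), TMEM196 (8.85), RGS4 (8.72), HAND1 (6.36), DCN (6.09) and TBX20 (6.00). The same direction held for the smooth muscle genes ACTA2 (4.87) and TAGLN (4.62), the immediate-early genes FOS (4.87) and EGR1 (4.38), the phosphatase DUSP5 (4.57), the Notch ligand JAG1 (4.74) and HEY1 (2.86). UNC45B had no reads in day 6 RA cells, so its value depends on what is given to an empty group. PI15, CALB1, TMEM196, TBX20 and DUSP5 were not reversed without the mixed day 6 untreated libraries. Leaving those out leaves 1 day 6 untreated library. Of the genes above, CYP26A1 alone was still reversed with the read kind as a covariate. VWA5B1 and CDH26 were then transient rises, UNC45B, CALB1, RGS4, ACTA2, DUSP5 and JAG1 delayed rises, and TAGLN, FOS and EGR1 transient falls. PI15, TCF21, TMEM196, HAND1, DCN, TBX20 and HEY1 were in no class. The differences of these genes between days were called with the covariate too (edgeR, adjusted p of at most 0.008).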

How the results depend on the processing

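With the read kind as a covariate, RA responses were called for 1871 genes on day 9 and 1942 on day 6, and there were 183 sustained rises, 242 sustained falls, 583 delayed rises, 503 delayed falls and 34 and 7 reversed genes (higher and lower on day 9). Directions then turned, without passing the test, for HOXB1 (-53.67 on day 9, -19.06 on day 6), SPARCL1 (0.79), ID1 (-0.64), DCX (1.16) and XBP1 (0.40), all on day 9 where no day is given. Of named responses, 40 of 92 on day 9, 41 of 85 on day 6 and 81 of 87 differences kept their call. The cause was not tested. Without the mixed libraries, with 1 day 6 untreated library, 92 of 92, 78 of 85 and 80 of 87 did. With TPM and limma there were 298 sustained falls, 1654 delayed rises, 481 delayed falls and 119 and 45 reversed genes, and XBP1 turned to 0.0896 on day 9. The median log2 fold change of all genes was then 0.279 on day 9 (7653 higher, 2802 lower) and 0.187 on day 6 (6225 higher, 2099 lower), against -0.0216 and 0.00312 from the counts, and TPM called 4718 differences higher and 3290 lower. Upper-quartile scaling gave 3365 higher and 4701 lower differences. A 1.5-fold threshold gave 945 sustained rises, 920 sustained falls, 1498 delayed rises, 1482 delayed falls and 357 and 312 reversed genes. A 4-fold threshold gave 199 transient rises, 171 transient falls, 212 sustained rises, 214 sustained falls, 503 delayed rises, 302 delayed falls and 42 and 15 reversed genes. Among protein-coding genes alone there were 340 sustained falls. Leaving out 1 library at a time gave 9324 to 10150 calls on day 9, 6580 to 7743 on day 6 and 7348 to 7829 differences. Transient rises then numbered 447 to 485, transient falls 301 to 345, sustained rises 522 to 557 and sustained falls 509 to 560. Delayed rises numbered 911 to 1014, delayed falls 864 to 994 and reversed genes 182 to 210 and 97 to 114. Over all these fits, 39 results of named genes lost their call, with some genes counted in more than 1 fit. Same-numbered RA and untreated libraries of a day did not deviate together (r between -0.148 and 0.0279), so the numbers were not taken as pairs. Day 9 and day 6 untreated libraries correlated best with their own number (r 0.367, 0.237 and 0.0449), a hint from the data, not the design. A replicate block gave 10088 calls on day 9, 7609 on day 6 and 7931 differences, and changed no call of a named gene. The shallowest library, with 5792337 counts, limits genes near the low-count filter.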
